A study of Homo sapiens with 6 samples.

Results

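DDIT4, DDIT4L, the 3 sestrin genes SESN1, SESN2 and SESN3, the tuberous sclerosis genes TSC1 and TSC2, DEPTOR, AKT1S1 and RHEB were examined in U251 cells, an established human glioma line, after exposure to the anesthetic gas sevoflurane (Sev). These 10 genes of 61496 features in the deposited table were found by matching their symbols to Ensembl identifiers, and each matched 1 identifier. The group was chosen by the strong fall of DDIT4 between the control and Sev libraries, so the change of DDIT4 is given as a description without a test. The other 9 genes were taken for their roles, with earlier results of the same libraries known, so their p-values set each difference against the spread between libraries and are not independent evidence.

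The comparison was between 3 libraries of untreated U251 cells and 3 libraries of U251 cells labelled as treated with sevoflurane for 2 h. Both groups are the same cell line, grown in DMEM with serum. The deposited protocol names the concentrations 1.7%, 3.4% and also 5.1% without assigning them to libraries, and the study's figure legend names 5.1% for this comparison. Nothing in the labels says that the 3 libraries of a group came from separate cultures, so the p-values measure only the spread between these libraries, which may be technical. RNA was depleted of ribosomal RNA and sequenced with strand-specific adapters as paired-end reads. Library totals were between 38624292 and 46318311 counts. The glioma markers VIM, NES and SOX9 were abundant in all 6 libraries, while OLIG2 was at most 2.52 CPM. Other glial markers shifted with Sev, since SOX2 (log2 fold change −0.72), S100B (−1.1) and OLIG2 (−1.99) were lower and CD44 (0.97) was higher by the edgeR test, and their part in the results was not tested. Of 7 markers of other cell types, PTPRC, EPCAM and CDH1 were at most 0.247 CPM, and the summed level of the 7 was 15.7 to 16.5 CPM in control and 21.7 to 24.7 CPM in Sev-treated cells, most of it from SYT1. The mitochondrial genome took 1.35% to 1.76% of counts in control and 1.13% to 1.35% in Sev libraries. The part of these shifts in the results was not tested. CPM here means counts scaled to library size after TMM normalization, and a log2 fold change is Sev minus control from the edgeR quasi-likelihood fit over all 27514 features that passed its expression filter.

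The kinase complex mTORC1 drives protein synthesis and cell growth when nutrients and growth factors are present. It is switched on at the lysosome by the small GTPase RHEB, and the TSC1-TSC2 complex holds RHEB in its inactive form. DDIT4, also called REDD1, and its relative DDIT4L act on mTORC1 through the TSC complex. Sestrins act through GATOR2, an activator of the amino acid branch, and SESN2 is known as a leucine sensor. DEPTOR and PRAS40, the product of AKT1S1, are inhibitory subunits of the complex itself. DDIT4 and SESN2 are both known as genes induced by stress, ATF4 among the factors that act on them.

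The sequences just upstream of DDIT4 and SESN2 are shown because these 2 stress genes, which share ATF4 as a known regulator, went in opposite directions after Sev. They are the 250 bases before the RefSeq start of each gene, both on the plus strand of GRCh38.p14, at chr10:72273674-72273923 for DDIT4 and chr1:28259268-28259517 for SESN2. Capitals mark every match to any of 7 short motifs searched on both strands.
DDIT4: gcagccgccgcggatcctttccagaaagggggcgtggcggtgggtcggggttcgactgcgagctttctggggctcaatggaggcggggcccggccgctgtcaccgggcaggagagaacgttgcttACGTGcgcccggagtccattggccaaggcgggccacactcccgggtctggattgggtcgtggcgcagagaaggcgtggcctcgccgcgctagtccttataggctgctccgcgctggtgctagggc
SESN2: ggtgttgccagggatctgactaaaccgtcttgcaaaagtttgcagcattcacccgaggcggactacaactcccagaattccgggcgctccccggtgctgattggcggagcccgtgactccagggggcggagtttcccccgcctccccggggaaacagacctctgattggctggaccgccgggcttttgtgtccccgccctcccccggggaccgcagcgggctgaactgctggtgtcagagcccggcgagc

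The motifs were TGATGNAA (the composite site bound by ATF4), ACGTG (the hypoxia response core), CACGTG (the E-box, which contains ACGTG), TGACGTCA (the cAMP response element), GTAAACA (FOXO), TGACNNNGC (the antioxidant response element) and AGAACA (a glucocorticoid half-site). The DDIT4 window held 1 match, ACGTG, starting 125 bases before the gene start, and the SESN2 window held none. ACGTG occurs in 18.5% and TGATGNAA in 3.14% of 35116 RefSeq promoter windows of the same length, and the other motifs in 1.65% to 12.4%. Windows were found for 8 of the 10 genes, and TGATGNAA was matched only in the first window of TSC2, starting 110 bases before that start. That TSC2 window also held CACGTG with the ACGTG inside it on both strands, and 1 match to TGACNNNGC. RHEB had 1 match to ACGTG, and SESN1 had 1 match to TGACNNNGC in 1 of its 3 windows. Both windows shown were rich in G and C, at 68.8% for DDIT4 and 65.6% for SESN2 against a median of 58.0% over all windows. These matches describe letters in short windows, and sites farther from the start were not searched.

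DDIT4 (ENSG00000168209, chr10:72273920-72276036, GRCh38, plus strand) was among the abundant mRNAs of untreated cells and was low after Sev. It had 194, 199 and 220 CPM in the control libraries and 21.4, 29.5 and 22.7 CPM in the Sev libraries. Every control library was far above every Sev library. The mean went from 204 ± 13.4 CPM to 24.5 ± 4.36 CPM (each SD over n = 3), which is 8.34-fold lower (log2 fold change −3.06, standard error 0.14). These values rest on 7904 to 10659 counts per control library and 805 to 1108 per Sev library. In rank by mean CPM among the tested features, DDIT4 went from place 733 in control to place 7184 in Sev. Its fall was the 135th largest of all 27514 tested features and the second largest of the 2053 features with at least 100 CPM in control. The annotated antisense gene DDIT4-AS1 overlaps 1066 bases of DDIT4 and was listed at 0 counts in all 6 libraries. Neither of the nearest tested protein-coding genes was called lower. ANAPC16, 38060 bases away, had a log2 fold change of 0.15 (edgeR adjusted p = 0.158), and DNAJB12, 56794 bases away on the other side, rose by 0.61 on the log2 scale (edgeR adjusted p = 0.00318).

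DDIT4L (ENSG00000145358, chr4:100185870-100190782, minus strand) was near the detection floor in both groups. It had 4, 8 and 18 counts in the control libraries and 10, 5 and 5 in the Sev libraries, or 0.0946 to 0.371 CPM against 0.126 to 0.265 CPM. The groups overlapped, and DDIT4L was the 1 gene of the 10 that did not pass the expression filter. The gene H2AZ1-DT covers all of DDIT4L on the other strand and had 238% as many counts. At this depth a change of DDIT4L was not detectable, and DDIT4 supplied nearly all transcripts of the pair in both groups.

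**Figure D1:**
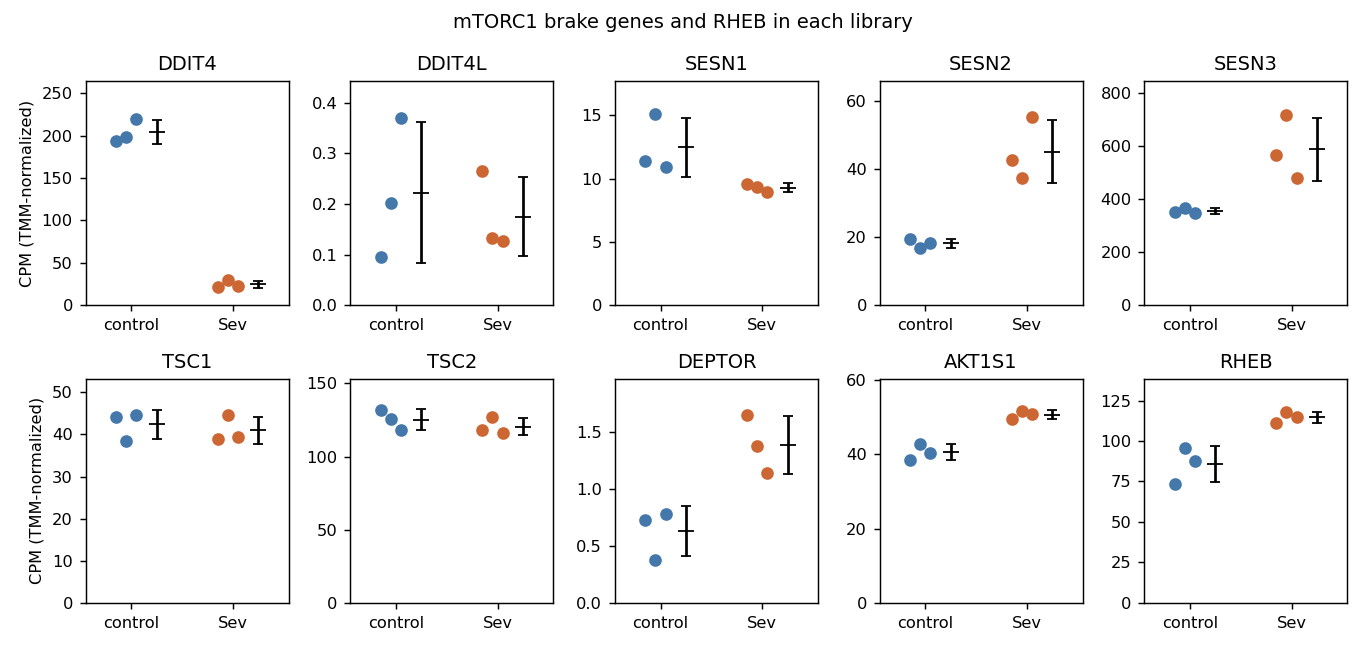
Expression of the 10 genes in each library, in TMM-normalized CPM on axes that start at 0, with points for the 3 control (blue) and 3 Sev (orange) libraries and black bars for the mean ± SD. DDIT4 falls from about 204 to 24.5 CPM, SESN2 and SESN3 are higher in every Sev library, and TSC1 and TSC2 overlap between the groups.

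Of the sestrins, SESN2 and SESN3 rose, and SESN1 was lower in every Sev library without passing the test. SESN2 (ENSG00000130766, chr1:28259527-28282491, plus strand), the stress-induced sestrin, had 19.4, 16.9 and 18.3 CPM in the control libraries and 42.6, 37.5 and 55.4 CPM in the Sev libraries. All Sev libraries were above all control libraries, with the Sev libraries more spread. SESN2 was 2.48-fold higher (log2 fold change 1.31, standard error 0.15, edgeR adjusted p = 0.000559). It stayed past the limit in all 15 alternative settings, with log2 fold changes from 1.0 to 1.43.

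SESN3 (ENSG00000149212, chr11:95165513-95232541, minus strand), known as a target of FOXO factors, was the most abundant sestrin. It had 351, 368 and 350 CPM in the control libraries and 568, 718 and 482 CPM in the Sev libraries. The control libraries agree closely with one another and all lie below the lowest Sev library. SESN3 was 1.65-fold higher (log2 fold change 0.73, standard error 0.14, edgeR adjusted p = 0.00458), also in all 15 alternatives. An annotated antisense transcript, LNCRNA-IUR, spans 67029 bases of the locus and moved the same way (log2 fold change 0.75), but its counts were 2.36% of those of SESN3.

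SESN1 (ENSG00000080546, chr6:108986437-109094819, minus strand), a sestrin known as a p53 target, had 11.4, 15.1 and 10.9 CPM in control and 9.61, 9.34 and 8.96 CPM in Sev-treated cells. The groups did not overlap, and the control libraries were the more spread. Its log2 fold change of −0.42 (standard error 0.15, edgeR adjusted p = 0.0577) missed the limit of 0.05. The value passed the limit with library size only (edgeR adjusted p = 0.0182) and in limma on log2(FPKM + 0.1) or log2(FPKM + 1). Within a library, where scaling cancels, there were 1.12 to 1.70 SESN2 counts per SESN1 count in control and 4.01 to 6.18 in Sev-treated cells. The gene CEP57L1 starts 291 bases from SESN1 on the other strand and fell by 2.16 on the log2 scale (edgeR adjusted p = 0.000356).

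On the FPKM scale, which divides by gene length and so allows genes to be compared, the summed sestrin level rose from 35.2 ± 0.743 (SD, n = 3) in control to 54.2 ± 5.02 (SD, n = 3) in Sev-treated cells. SESN3 supplied 80.9% to 81.7% of this sum in control libraries and 72.0% to 84.3% in Sev libraries, so its share overlapped between the groups. The share of SESN1 was lower in every Sev library, at 2.25% to 2.75% against 5.20% to 6.90% in control. The ratio of DDIT4 FPKM to SESN2 FPKM within a library was 16.9, 19.9 and 20.2 in control and 0.843, 1.32 and 0.689 in Sev-treated cells. Per length, DDIT4 mRNA was therefore far above SESN2 mRNA in control cells, and the 2 were at about the same level after Sev.

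**Figure D2:**
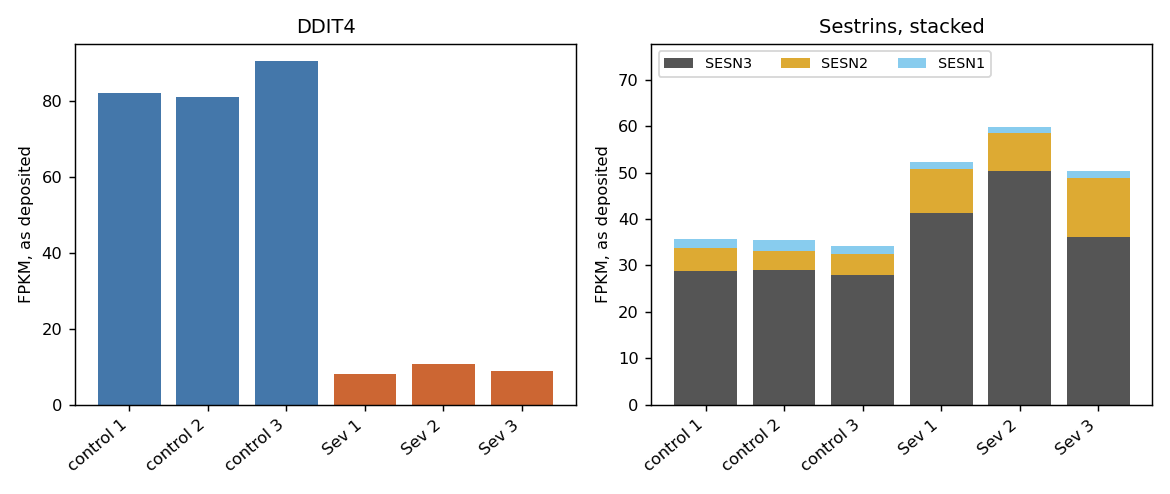
Deposited FPKM in each of the 6 libraries, with DDIT4 on the left and the 3 sestrins stacked on the right. DDIT4 is at 81.1 to 90.6 FPKM in control and 8.0 to 10.7 FPKM in Sev libraries, while the sestrin sum is 34.3 to 35.6 and 50.4 to 59.9 FPKM.

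The TSC complex, through which DDIT4 acts, was not called changed in either subunit. TSC2 (ENSG00000103197, chr16:2047465-2089487, plus strand), the subunit that acts on RHEB, had 132, 126 and 118 CPM in control and 118, 127 and 116 CPM in Sev-treated cells, a log2 fold change of −0.062 (standard error 0.080, edgeR adjusted p = 0.558). TSC1 (ENSG00000165699, chr9:132891348-132946874, minus strand), the subunit that stabilizes TSC2, had 44.1, 38.4 and 44.7 CPM in control and 39, 44.7 and 39.3 CPM in Sev-treated cells, a log2 fold change of −0.049 (standard error 0.10, edgeR adjusted p = 0.725). Both pairs of groups overlapped on this scale. On the deposited FPKM scale, TSC2 was 5.22 to 5.99 in control and 4.74 to 4.93 in Sev libraries, without overlap, on a scale without the TMM factors, and no alternative called TSC2 (adjusted p from 0.0614 to 0.789). The number of TSC2 counts per TSC1 count within a library was 2.97 ± 0.327 (SD, n = 3) in control and 2.93 ± 0.0889 (SD, n = 3) in Sev-treated cells. TSC2 overlaps 778 bases of PKD1 and 402 bases of NTHL1 on the other strand, and whether the counting used the strand is not given in the sources used here.

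RHEB (ENSG00000106615, chr7:151466012-151520120, minus strand) is the activator that the TSC complex restrains, and it rose modestly. It had 73.6, 95.5 and 87.8 CPM in control and 111, 118 and 115 CPM in Sev-treated cells. The Sev libraries were close together and all above the control libraries, and RHEB was 1.34-fold higher (log2 fold change 0.42, standard error 0.11, edgeR adjusted p = 0.0136). The call was lost in limma on log2(FPKM + 1) without a filter (0.28, adjusted p = 0.0685) and kept in the other 14 alternatives. The ratio of RHEB counts to TSC2 counts within a library was 0.559 to 0.755 in control and 0.933 to 0.998 in Sev-treated cells. The copies RHEBP1, RHEBP2 and RHEBP3 and the related gene RHEBL1 each had at most 1.47% as many counts as RHEB. The pseudogene ETF1P2 lies within RHEB on the other strand, had 15.6% as many counts as RHEB, and rose by 0.88 on the log2 scale.

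Both inhibitory subunits of mTORC1 were higher in Sev-treated cells, with less certainty than SESN2 and SESN3. AKT1S1 (ENSG00000204673, chr19:49869033-49878459, minus strand) had 38.6, 42.8 and 40.4 CPM in control and 49.5, 51.7 and 51.0 CPM in Sev-treated cells. The groups did not overlap, and AKT1S1 was 1.25-fold higher (log2 fold change 0.32, standard error 0.082, edgeR adjusted p = 0.0149). This call was lost with library size only (log2 fold change 0.18, edgeR adjusted p = 0.106), on the 3 FPKM settings, without control replicate 1 (0.28, edgeR adjusted p = 0.0527) and without control replicate 3 (0.31, edgeR adjusted p = 0.0619). AKT1S1 overlaps TBC1D17 on the other strand over 1035 bases, so without strand the reads of the 2 genes there cannot be told apart. DEPTOR (ENSG00000155792, chr8:119873717-120050913, plus strand) was near the limit of detection, with 31, 15 and 38 counts in control and 62, 52 and 45 counts in Sev libraries. Its level went from 0.631 ± 0.220 CPM to 1.39 ± 0.255 CPM (each SD over n = 3), a log2 fold change of 1.12 (standard error 0.32, edgeR adjusted p = 0.0239). The call was lost without control replicate 2 (0.86, edgeR adjusted p = 0.0526), without Sev replicate 1 (0.99, edgeR adjusted p = 0.0813) and in limma on log2(FPKM + 1) without a filter. DEPTOR-AS1 overlaps 772 bases of DEPTOR on the other strand and had 15.6% as many counts. It did not pass the expression filter, with a mean of 0.114 CPM in control and 0.202 CPM in Sev libraries.

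**Figure D3:**
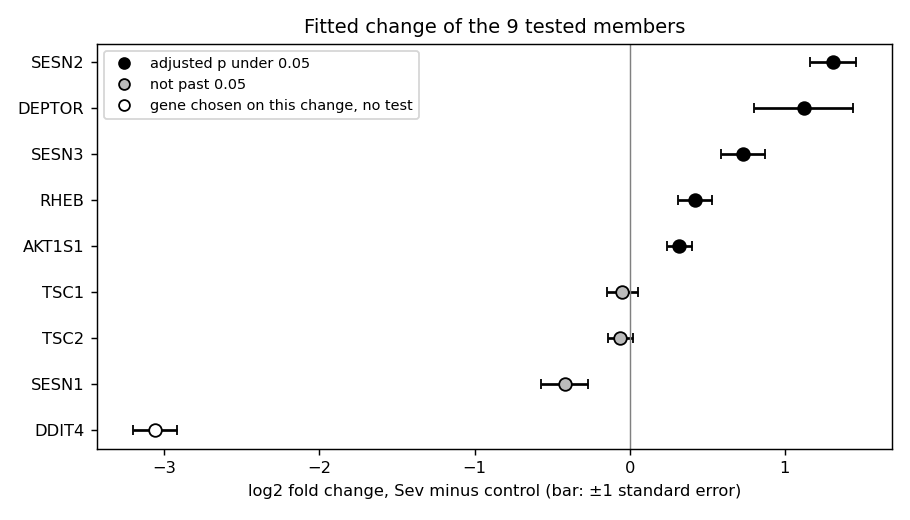
Fitted log2 fold change, Sev minus control, of the 9 genes that passed the expression filter, with bars of ±1 standard error. SESN2, DEPTOR, SESN3, RHEB and AKT1S1 lie to the right of 0 (black, adjusted p under 0.05), SESN1, TSC1 and TSC2 (grey) are not past the limit, and DDIT4 (open) stands at −3.06 without a test.

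Of the 8 tested genes other than DDIT4, 5 were higher with an adjusted p-value under 0.05 and 3 were not called, beside 22.1% of all tested features higher and 21.5% lower. The study's threshold asked for a log2 change larger than 1 in size and an unadjusted p below 0.05. Of the 8 genes, SESN2 and DEPTOR were past it, both higher, beside 11.4% of all features higher and 12.0% lower. The groups did not overlap for the same 5 higher genes (28.3% of all features) and, in the lower direction, for SESN1 (28.2%). With DDIT4 included, the median log2 fold change of the 9 was 0.32, beside −0.0056 for all tested features and 0.049 for those of at least 10 CPM. Since the genes were chosen with this contrast in view, nothing is read from these shares.

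The order of levels per length changed around DDIT4. In control cells, the mean FPKM ran from DDIT4 (84.6 ± 5.18) through SESN3 (28.6 ± 0.528), RHEB (20.6 ± 2.27), AKT1S1 (6.0 ± 0.193), TSC2 (5.57 ± 0.388), SESN2 (4.48 ± 0.399), SESN1 (2.05 ± 0.354), TSC1 (2.03 ± 0.200) and DEPTOR (0.198 ± 0.0764) to DDIT4L (0.0605 ± 0.0399), each SD over n = 3. The neighbours AKT1S1 and TSC2 overlapped, as did SESN1 and TSC1. In Sev-treated cells SESN3 (42.7 ± 7.20) and RHEB (25.1 ± 0.912) led, followed by SESN2 (10.1 ± 2.40) and DDIT4 (9.15 ± 1.36), which overlapped. Some places in this order depend on the length used. For the 10 genes the deposited FPKM scale with the merged length of all annotated exons, which in GENCODE 29 is 3.09 times the longest transcript for TSC2 and 2.02 times for TSC1, against 1.18 times for DDIT4. With CPM per kilobase of the longest transcript, TSC2 in control cells was at 19.8 and AKT1S1 at 11.2, the reverse of the FPKM order of their means. RHEB at 41.3 and SESN3 at 37.3 were likewise reversed in control cells. On that scale in Sev-treated cells, TSC2 at 18.9 came next after SESN3 and RHEB, above DDIT4 at 14, AKT1S1 at 13.9 and SESN2 at 13.1.

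The 4 genes whose log2 CPM followed that of DDIT4 most closely over the 6 libraries, among symbols with at least 10 CPM, were SORT1, NEURL4, ZKSCAN4 and ARID3A, with Pearson r from 0.9992 to 0.9997. Since the groups of DDIT4 lie far apart, this measure picks genes by the split between the groups, and the direction of these genes was fixed by the choice. Their log2 fold changes ranged from −2.53 for ARID3A to −0.43 for ZKSCAN4.

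Other genes of the pathway were described from 7 lists with 83 genes, all of them tested. Of these, 20 were higher, 14 were lower and 49 were not called at an adjusted p-value under 0.05 (24.1% and 16.9%, beside 22.1% and 21.5% of all features), with a median log2 fold change of 0.083. With library size only, 22 of the 83 were lower, and without control replicate 3 or Sev replicate 1 the lower ones were 9. In the kinase complex, RPTOR, the subunit that binds substrates, rose from 79.8 ± 2.10 to 111 ± 9.57 CPM (log2 fold change 0.48), while TTI1, which helps assemble the kinase, fell from 38.0 ± 1.80 to 18 ± 1.80 CPM (log2 fold change −1.07). MLST8 was also higher (0.31, edgeR adjusted p = 0.0352), a call lost in 12 of 15 alternatives. The kinase gene MTOR itself had a log2 fold change of −0.16 (edgeR adjusted p = 0.117).

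Among the 12 genes of GATOR1, GATOR2 and KICSTOR, the lysosomal complexes downstream of the sestrins, 5 were lower and 1 was higher (41.7% and 8.33%, beside 21.5% lower and 22.1% higher of all features). NPRL2, a GATOR1 subunit, fell from 15.1 ± 0.978 to 9.02 ± 1.20 CPM (log2 fold change −0.74). The higher gene was SEC13, a GATOR2 subunit that also serves in vesicle coats and nuclear pores, with 118 ± 5.81 against 191 ± 26.2 CPM (log2 fold change 0.70). Of 16 genes for Rag GTPases, Ragulator, folliculin and amino acid sensors, RRAGC (0.52) and FNIP1 (0.43) were higher. The arginine sensor CASTOR1 (−1.56, at 3.74 ± 0.695 CPM in control) and the lysosomal arginine sensor SLC38A9 (−0.91) were lower, and the remaining 12 were not called, so that 12.5% were called in each direction, beside 22.1% higher and 21.5% lower of all features. The genes RPTOR, TTI1, NPRL2, SEC13, RRAGC, FNIP1, CASTOR1 and SLC38A9 kept direction and call in all 15 alternatives.

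Of 19 genes for signals that reach the TSC complex, 5 were higher and 4 were lower (26.3% and 21.1%, close to the 22.1% and 21.5% of all features). Subunits of AMPK, the energy-sensing kinase that acts on TSC2, went both ways. Of its regulatory subunit genes, PRKAG2 (0.94), PRKAB1 (0.58) and PRKAB2 (0.49) were higher and PRKAG1 (−0.65) was lower. Of its catalytic subunit genes, PRKAA2 was lower (−0.68), with 38.6 ± 2.01 against 24.1 ± 1.10 CPM, and PRKAA1 was not called (−0.062, edgeR adjusted p = 0.511). AKT1 (−0.015) and AKT2 (0.085), kinases that inhibit TSC2, were not called. Among 17 substrates and effectors of mTORC1, 6 were higher and 1 was lower (35.3% and 5.88%, beside 22.1% and 21.5% of all features). LPIN1, a lipid phosphatase, rose from 83.3 ± 4.11 to 155 ± 7.65 CPM (log2 fold change 0.89) and EIF4EBP1, a repressor of cap-dependent translation, from 22.2 ± 3.78 to 34.3 ± 2.07 CPM (log2 fold change 0.63). LARP1 was lower (−0.26, edgeR adjusted p = 0.0374), a call lost in 5 of 15 alternatives.

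Factors known to act on DDIT4 or the sestrin genes were either higher or not called. Of 10, 4 were higher and 6 were not called, beside 22.1% of all features higher and 21.5% lower. ATF4 had 179 ± 7.27 CPM in control and 377 ± 31.1 CPM in Sev-treated cells (log2 fold change 1.08, edgeR adjusted p = 0.000147), and DDIT3, a stress factor downstream of it, was at 14 ± 1.74 against 29.3 ± 1.22 CPM (log2 fold change 1.07). EPAS1 (0.50) and FOXO3 (0.46) were higher, and FOXO3 lost its call in limma on log2(FPKM + 1) without a filter. NFE2L2, which responds to oxidative stress, was not called (−0.11, edgeR adjusted p = 0.264) but was called lower with library size only and on the 3 FPKM settings. In turn, HIF1A (−0.055, edgeR adjusted p = 0.723) and the glucocorticoid receptor gene NR3C1 (0.083, edgeR adjusted p = 0.623) were not called, and the sign of both depended on the setting. Of the 4 genes for proteins known to set the stability of DDIT4 protein, BTRC, an F-box protein, was lower (−0.43, edgeR adjusted p = 0.00371), and CUL4A (0.21), DDB1 (0.18) and TXNIP (−0.79) were not called. TXNIP varied widely between control libraries, at 436 ± 229 CPM (SD, n = 3), and its log2 fold change was −0.31 without control replicate 1 and −1.09 without control replicate 2, where it was called lower. Levels of DDIT4 protein and activity of mTORC1 were not measured by these libraries.

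**Figure D4:**
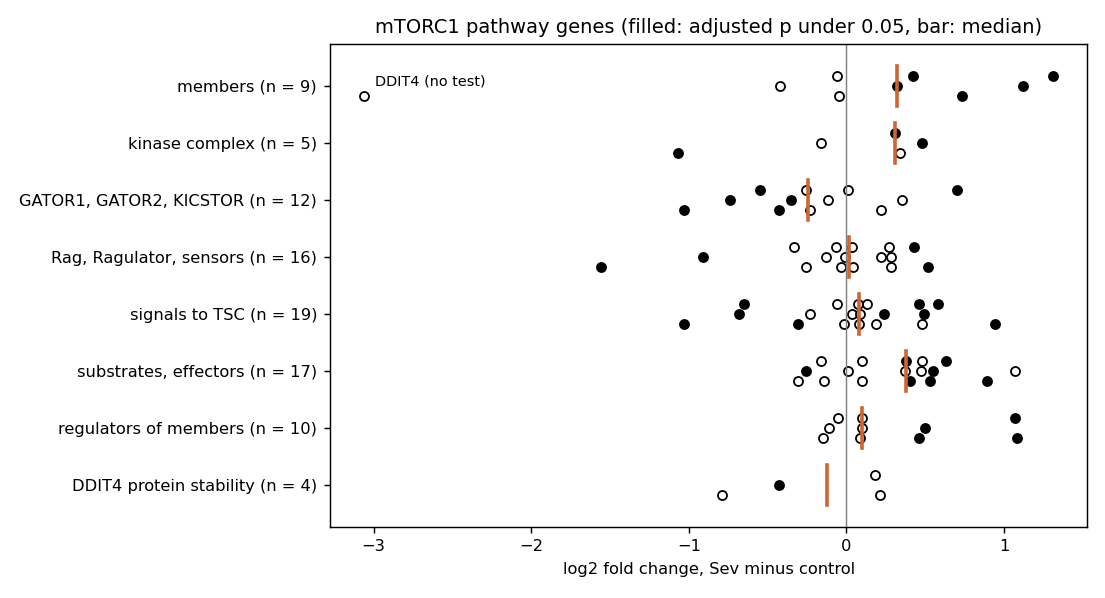
Log2 fold change, Sev minus control, of each tested gene in 8 groups, with filled points at an adjusted p-value under 0.05, open points otherwise, and an orange bar at the group's median. DDIT4, drawn open because it has no test, stands apart at −3.06, and the medians of the 8 groups lie between −0.24 and 0.38.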

How the data were processed

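Tables of 61496 features were used. One, deposited by the authors, gives raw read counts by gene, and the other, also deposited, gives FPKM. The submitters' processing notes name bcl2fastq 2.19, featureCounts and hg18, without settings. The aligner and the annotation are not given in the sources used here. Symbols came from a gene table, and positions from GENCODE 29 on GRCh38, joined by Ensembl identifier and not by coordinate. Promoter windows came from RefSeq (GRCh38.p14).

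The counts were fitted with edgeR 4.0.16 under R 4.3.3 (filterByExpr, TMM, glmQLFit, glmQLFTest, 2 groups, no covariate), with Benjamini-Hochberg adjustment over 27514 features and a limit of 0.05. The standard error is the absolute log2 fold change over the square root of F. CPM holds no prior count. The likeness to DDIT4 used log2(CPM + 0.01). Alternatives used DESeq2 1.42.0, limma 3.58.1 on log2(FPKM + 1) or log2(FPKM + 0.1) with FPKM of at least 0.5 in 3 libraries, other scalings and filters, the replicate number as a block, and each library left out. The fits were tested on simulated data. Replicates of one group differed beyond sampling noise in 51.6% to 67.5% of 13227 genes.

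The genes and lists were chosen with earlier results of these data known. Named were the 10 genes and, per list, up to 2 per direction with the largest change among those called, without overlap and of at least 1 CPM. Named as well were the regulators, the genes that overlap, neighbour or copy the 10, and the 5 most like DDIT4. MTOR, AKT1, AKT2, PRKAA1, PRKAB2, PRKAG1 and the shifted glial markers were named outside this rule, after their values were seen. Some genes that the rule names are not reported here. With 3 libraries against 3, an exact permutation test cannot go under 0.1.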

Additional observations from a re-analysis of the deposited data

How the results depend on the processing

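Across the 15 alternatives the log2 fold change of DDIT4 ran from −3.21 to −2.97, and no direction of the 9 tested genes turned in the alternatives that fitted them. DEPTOR was fitted in 13, since the FPKM filter removed it from the other 2. The members called higher, 5 in the main fit, were 3 in limma on log2(FPKM + 1) and log2(FPKM + 0.1) and 2 without its filter. The count of members lower holds DDIT4 as a description without a test. This count, 1 in the main fit, was 2 with library size only and in limma on log2(FPKM + 1) and log2(FPKM + 0.1), where SESN1 joined DDIT4. Those past the study's threshold, 3 in the main fit with DDIT4 among them, were 1 in limma on log2(FPKM + 1), with or without the filter, a scale that understates low genes. Pathway genes called higher, 20 in the main fit, were 12 in limma on log2(FPKM + 1) without a filter, and those called lower, 14, were 22 with library size only. Leaving out each library gave 4 to 5 members higher, 1 lower (DDIT4), 2 to 3 past the threshold, 16 to 21 pathway genes higher and 9 to 15 lower. Library size only moved the median of all features by −0.14 on the log2 scale relative to TMM, and limma on FPKM by −0.12 to −0.14. The cause of the other shifts was not tested.

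Groups share replicate numbers, but same-numbered libraries did not deviate together from their group means (r = −0.035, 0.005 and 0.059 over 19446 genes). With 3 libraries per group this cannot exclude a batch shared by number, and the main fit used no pairing. With the replicate number as a block, 5 members were higher and 1 was lower, and 18 pathway genes were higher and 10 lower. DEPTOR, with 15 to 62 counts per library, and DDIT4L, with 4 to 18, are limited by depth.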
